A study of Mus musculus with 16 samples.

Results

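Myelin genes were followed across the brains of mice that drank water, nicotine, ethanol or both. The 9 genes, Mbp, Mobp, Mag, Cnp, Mog, Opalin, Cldn11, Mal and Ugt8a, were chosen by symbol from the 24062 genes of the count table, and all 9 were also among the 23991 genes of the FPKM table. All 9 passed the filter on low counts in every comparison. They were chosen with earlier results of these data known, so their counts beside the shares of all genes are not independent evidence. Transcript levels of Cnp, Mal, Ugt8a and Opalin were lower by 12.5% to 23.9% in mice with ethanol, when the 8 mice with ethanol were set against the 8 without. The other 5 genes did not pass this test, by which 1.56% of all genes were called lower. Water-Ethanol against WW and NE against NW gave estimates of -16.4% and -10.8% for Cnp and of -16.8% and -8.2% for Mal. For Ugt8a they were -20.1% and -4.3%, and for Opalin -27.0% and -20.7%. By edgeR no myelin gene passed in a comparison of one group with another. DESeq2, the other count test, called 6 of the 9 lower in Water-Ethanol than in WW, beside 1.32% of all genes. It called 3 lower in NE than in WW, beside 1.22% of all genes. Leaving out any 1 of 6 mice left no gene that passed in the ethanol effect.

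Myelin is the multilayered membrane that oligodendrocytes wrap around axons of the brain and that speeds the conduction of impulses. Its compact part is held together by basic proteins on the cytoplasmic face, while other proteins sit on the inner and outer surfaces, form tight junctions or carry membrane lipids, and the membrane is rich in galactolipids. In mice, much of the brain is myelinated between birth and young adulthood, a span that includes adolescence.

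Transcripts were measured by RNA-seq in whole brains, cerebellum included, of 16 female C57BL/6J mice, an inbred strain, taken at postnatal day 45. WW mice (n = 4) drank only water, and NW mice (n = 4) had 200 µg/ml nicotine in tap water for 22 h per day. Water-Ethanol mice (n = 4), marked by these initials in the plots, had 20% v/v ethanol by drinking in the dark, a protocol with short sessions in the dark phase, here of 2 h on the first days and of 4 h on the last of 4 days, with water in the remaining hours. NE mice (n = 4) had both nicotine and ethanol, the nicotine being absent during the ethanol sessions. NW mice likewise had no nicotine in those hours, so the brains of both groups were taken after 4 h without it. Nicotine was first given on days before the ethanol sessions began. The authors name withdrawal from nicotine as a possibility for the nicotine group, which was not tested here. Intake was not fixed by the study and was not used here. Each mouse gave 1 library, with 27100352 to 32880979 counted reads (median 29448284), and no pair of mice had identical counts. The mouse numbers run in blocks by group, and whether they mark an order of handling was not tested.

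The brain label was checked against defining markers. Snap25, a synaptic protein of neurons, had 1251 to 1489 FPKM (a unit scaled for both transcript length and library size), and Pmp2, a myelin protein of peripheral nerve, had at most 0.119 FPKM. There were 2 mice that stood apart in regional markers. The summed level of 12 markers of cerebellar neurons was 692 CPM (read counts scaled to library size) in WW mouse 21 and 862 CPM in NW mouse 10, against 1695 to 1988 CPM in the other 14 mice. The same mice had the lowest sums of 16 hindbrain and spinal cord markers, 17.7 and 13.1 CPM against 22.5 to 50.5 CPM in the others. Neither of these mice had ethanol. For the ethanol effect, the numbers of myelin genes, microglial markers and all genes that passed are also given without them.

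The stretch before the start of the 4 genes that passed the test is shown to place them in the genome and to let their sequences be compared. Each line holds 250 bases that end just before a RefSeq transcript start (GRCm38.p6), read 5′ to 3′ on the strand of the gene. Capitals mark 2 motifs searched on both strands, ACAAAG (the core of sites bound by SOX factors such as SOX10) and CTGGCAC or CTGGTAC (bound by MYRF), both factors of oligodendrocytes that promote myelin genes. The windows lie at chr11:100574689-100574938 on the plus strand for Cnp, and on the minus strand at chr19:41077114-41077363 for Opalin, chr2:127656696-127656945 for Mal and chr3:125938653-125938902 for Ugt8a.
Cnp: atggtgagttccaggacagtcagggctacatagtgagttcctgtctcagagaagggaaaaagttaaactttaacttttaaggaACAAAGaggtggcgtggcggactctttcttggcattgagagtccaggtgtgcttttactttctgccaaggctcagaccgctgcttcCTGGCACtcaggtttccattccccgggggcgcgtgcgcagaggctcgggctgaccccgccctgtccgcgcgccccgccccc
Opalin: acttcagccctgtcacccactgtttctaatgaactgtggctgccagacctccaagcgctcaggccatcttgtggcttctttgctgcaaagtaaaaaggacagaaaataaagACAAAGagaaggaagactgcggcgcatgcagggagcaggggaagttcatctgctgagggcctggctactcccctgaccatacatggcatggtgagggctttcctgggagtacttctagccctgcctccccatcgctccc
Mal: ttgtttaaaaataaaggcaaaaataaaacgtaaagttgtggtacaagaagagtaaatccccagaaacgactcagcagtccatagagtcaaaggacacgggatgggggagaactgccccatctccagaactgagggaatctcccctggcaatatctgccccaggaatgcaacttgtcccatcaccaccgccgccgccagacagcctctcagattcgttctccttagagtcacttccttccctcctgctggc
Ugt8a: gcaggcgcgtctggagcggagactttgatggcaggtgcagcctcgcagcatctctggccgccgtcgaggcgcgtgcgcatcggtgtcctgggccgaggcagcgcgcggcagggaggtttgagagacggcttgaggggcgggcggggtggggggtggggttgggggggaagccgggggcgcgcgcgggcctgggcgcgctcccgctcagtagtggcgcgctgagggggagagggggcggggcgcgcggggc
The Cnp window held 1 match of each motif, at bases -167 and -81 from the start, and the Opalin window 1 SOX match at base -139. No match overlapped another in these windows, and the Mal and Ugt8a windows held neither set of letters. Of the 8 myelin genes with a window, 4 held the SOX letters (Mobp with 6 matches, Mag, Cnp and Opalin), which 16.5% of all 32851 windows held. The MYRF letters were in 3 of the 8 genes (Mag, Cnp and Mog) and in 5.93% of all windows. Counted by window, as the shares are, the SOX letters were in 5 and the MYRF letters in 4 of the 10 windows of these 8 genes. Mag has overlapping windows that share the same matches. Neither CAGCTG, an E-box, nor TATAAA, the TATA box, was found in any of the 8, against 13% and 12.4% of all windows. The base composition of the windows ranged from 40.8% GC for Mobp to 76.8% for Ugt8a.

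Per unit of transcript length, Mbp was by far the most abundant of the 9. Mbp, which encodes myelin basic protein, the protein that holds the cytoplasmic faces of compact myelin together, averaged 1597 FPKM over the 16 mice and ranked 3 among all genes. It was followed by Cnp at 190 FPKM, Mal at 158 FPKM, Cldn11 at 146 FPKM, Mobp at 135 FPKM and Mag at 114 FPKM. The lowest were Mog at 59.5 FPKM, Ugt8a at 43.9 FPKM and Opalin at 22.8 FPKM, and even Opalin ranked 3861. The ranges over the 16 mice did not overlap between Mbp and Cnp, between Mag (96.6 to 141 FPKM) and Mog (46.0 to 75.7 FPKM), or between Ugt8a (37.3 to 54.8 FPKM) and Opalin (15.5 to 34.8 FPKM). All other neighbours in this order overlapped. Together the 9 genes took 0.429% to 0.551% of the counted reads of a mouse, and Mbp alone took 0.257% to 0.329%.

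Mbp and Mobp encode the basic proteins of compact myelin. Mbp (chr18:82475123-82585637, plus strand, 10 exons in the count table's gene model) had 2679 to 3182 CPM in WW, 2779 to 3213 in NW, 2546 to 2933 in Water-Ethanol and 2749 to 3046 in NE. Mobp (chr9:120149742-120176091, plus strand, 5 exons) had 346 to 413 CPM in WW, 351 to 403 in NW, 336 to 374 in Water-Ethanol and 334 to 387 in NE. The groups overlapped for both genes, and both moved little. The effect of ethanol on the log2 scale was -0.09 ± 0.0433 (SE) for Mbp and -0.09 ± 0.0442 for Mobp, with adjusted p-values of 0.234 and 0.245 by edgeR's quasi-likelihood test. For Mbp all 8 mice with ethanol lay below the median of the 8 without, but only 1 lay below all 8 without. For Mobp these numbers were 7 and 4. The share of all genes with such counts was not computed.

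Mag and Cnp act where myelin meets its axon and in its non-compact parts. Mag (chr7:30899183-30914832, minus strand, 13 exons) encodes a sialic acid-binding adhesion protein of the innermost layer. It had 245 to 290 CPM in WW, 248 to 325 in NW, 228 to 277 in Water-Ethanol and 248 to 284 in NE, and its ethanol effect of -0.09 ± 0.0537 did not pass (edgeR adjusted p = 0.301). Cnp (chr11:100574939-100581739, plus strand, 4 exons) encodes a phosphodiesterase that keeps cytoplasmic channels in myelin open. Cnp had 401, 501, 498 and 458 CPM in the WW mice 18, 19, 20 and 21. The NW mice 7, 8, 10 and 11 had 512, 479, 420 and 427 CPM of Cnp. The Water-Ethanol mice 13 to 16 had 404, 399, 382 and 364 CPM, and the NE mice 2 to 5 had 405, 415, 376 and 449 CPM. All Water-Ethanol mice but mouse 13 lay below every WW mouse, and WW mouse 18 lay among the mice with ethanol. Cnp averaged 399 ± 26.3 CPM (SD, n = 8) with ethanol and 462 ± 42.0 CPM (n = 8) without, a log2 difference of -0.21 (SE 0.0518, edgeR adjusted p = 0.0264). For Cnp all 8 mice with ethanol lay below the median of those without, and 4 lay below all of those without. For Mag these numbers were 6 and 1.

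Mog and Opalin encode membrane proteins of oligodendrocytes, Mog on the outermost surface of the sheath. Opalin (chr19:41063420-41077113, minus strand, 6 exons), which encodes a sialylated glycoprotein of oligodendrocytes, had the largest difference of the 9 in the ethanol effect. Its levels in the WW mice 18 to 21 were 16.4, 18.9, 20.2 and 18.1 CPM. The NW mice 7, 8, 10 and 11 spread the widest, at 24.5, 21.5, 16.7 and 14.3 CPM. Opalin was at 15.1, 10.96, 14.7 and 12.8 CPM in the Water-Ethanol mice 13 to 16, all below the 4 WW mice, and at 14.7, 15.1, 12.9 and 18.6 CPM in the NE mice 2 to 5, of which mouse 5 lay within the WW range. With ethanol Opalin averaged 14.4 ± 2.24 CPM (n = 8) and without it 18.8 ± 3.21 CPM (n = 8), and the log2 difference was -0.39 (SE 0.102, edgeR adjusted p = 0.0347). Mog (chr17:37010740-37023398, minus strand, 8 exons) ran from 83.4 to 109 CPM in WW, 80.7 to 112 in NW, 71.8 to 89.6 in Water-Ethanol and 69.3 to 101 in NE. Its groups overlapped, and its ethanol effect of -0.24 ± 0.0803 on the log2 scale did not pass (adjusted p = 0.0906, edgeR).

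Cldn11, Mal and Ugt8a concern the membrane itself. Cldn11 (chr3:31149920-31164326, plus strand, 3 exons) encodes the claudin of the tight junctions that seal the sheath. It had 230, 299, 281 and 285 CPM in the WW mice 18 to 21, 232 to 241 CPM in NW, 214 to 236 CPM in Water-Ethanol and 213 to 257 CPM in NE. WW mouse 18 alone kept the WW group from standing above all NW mice, and the log2 ethanol effect of -0.15 ± 0.0479 did not pass (edgeR adjusted p = 0.0767). Mal (chr2:127633226-127656695, minus strand, 4 exons) encodes a proteolipid of lipid rafts that takes part in protein transport to myelin. Mal was at 372, 492, 460 and 474 CPM in the WW mice 18 to 21, at 399, 429, 410 and 392 CPM in NW mice 7, 8, 10 and 11, at 372, 397, 370 and 353 CPM in Water-Ethanol mice 13 to 16, and at 386, 364, 336 and 415 CPM in NE mice 2 to 5. Again 3 of the WW mice were the highest of all 16 and the fourth, mouse 18, lay near the level of the Water-Ethanol mice. Mal averaged 374 ± 25.0 CPM with ethanol and 429 ± 42.6 CPM without (n = 8 each), a log2 difference of -0.19 (SE 0.0516, edgeR adjusted p = 0.0387).

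Ugt8a (chr3:125865343-125938550, minus strand, 6 exons) encodes the enzyme that adds galactose to ceramide, the step that makes galactocerebroside, the leading galactolipid of myelin. The WW mice 18 to 21 had 152, 187, 183 and 164 CPM of Ugt8a. The NW mice 7, 8, 10 and 11 had 150, 153, 134 and 149 CPM, so that mouse 8 alone reached the lowest WW mouse. The Water-Ethanol mice 13 to 16 had 138, 132, 151 and 127 CPM, all below all WW mice, and the NE mice 2 to 5 had 141, 133, 133 and 155 CPM. Ugt8a was thus highest in WW and close together in the other 3 groups. With ethanol it averaged 139 ± 9.66 CPM and without it 159 ± 18.04 CPM (n = 8 each), a log2 difference of -0.19 (SE 0.0485, edgeR adjusted p = 0.0307). In bulk tissue, fewer oligodendrocytes and less RNA per oligodendrocyte cannot be told apart.

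**Figure D1:**
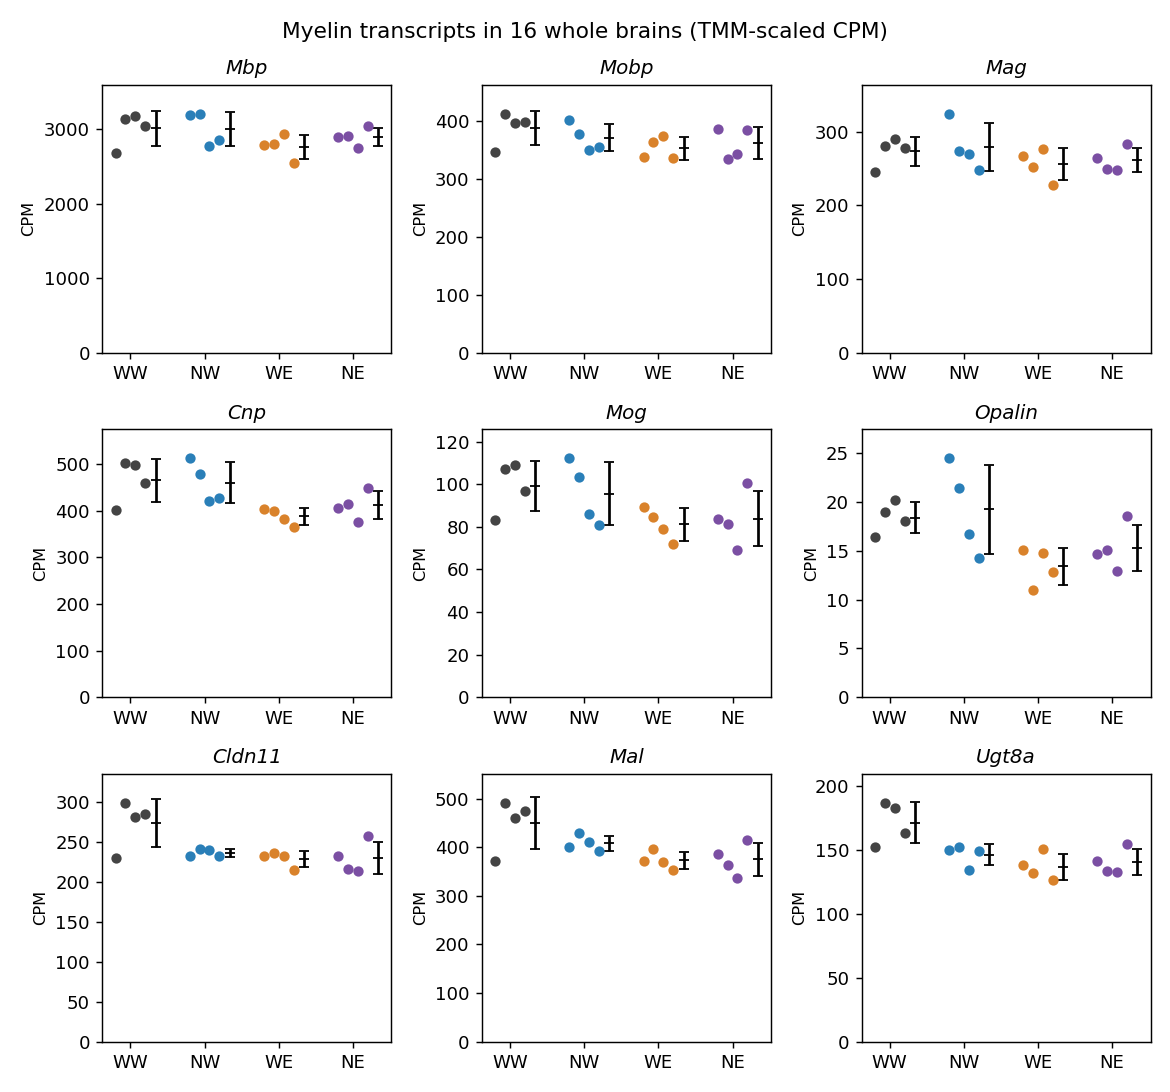
Level of each myelin gene in CPM (y axis, from 0) in the 4 groups (x axis), with 1 point per mouse and a black bar for the mean and SD of the 4 mice. In the panels of Opalin and Ugt8a every Water-Ethanol point lies below every WW point, while these groups overlap for Mbp, Mobp, Mag, Cnp, Mog, Cldn11 and Mal.

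Over the study's layout, the ethanol effect was the difference between the mean of Water-Ethanol and NE and the mean of WW and NW, fitted to all 16 mice. All 9 myelin genes had a negative estimate, with a median of -0.19 on the log2 scale, where the median of all genes tested was 0.0021. The test was passed by 4 of the 9, all of them lower with ethanol, while 4.50% of the 15592 genes passed in either direction and 1.56% were called lower. Lower levels at an unadjusted p-value under 0.05 were seen for 6 of the 9, against 10.1% of all genes. The number that passed rests on single mice. It was 0 of 9 without NE mouse 2, NE mouse 4, NW mouse 8, Water-Ethanol mouse 16, WW mouse 19 or WW mouse 20, it was 1 without Water-Ethanol mouse 15, and it was 6 without NE mouse 5. Without both mice with low cerebellar markers it was 3, as Mal no longer passed (edgeR adjusted p = 0.0566), and with scores of cerebellar, olfactory bulb and hindbrain markers as covariates it was 2. The estimates themselves kept their sign for each of the 9 genes in all 26 alternatives. That of Opalin ran from -0.46 to -0.32, that of Cnp from -0.24 to -0.18, that of Ugt8a from -0.23 to -0.17 and that of Mal from -0.23 to -0.16.

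**Figure D2:**
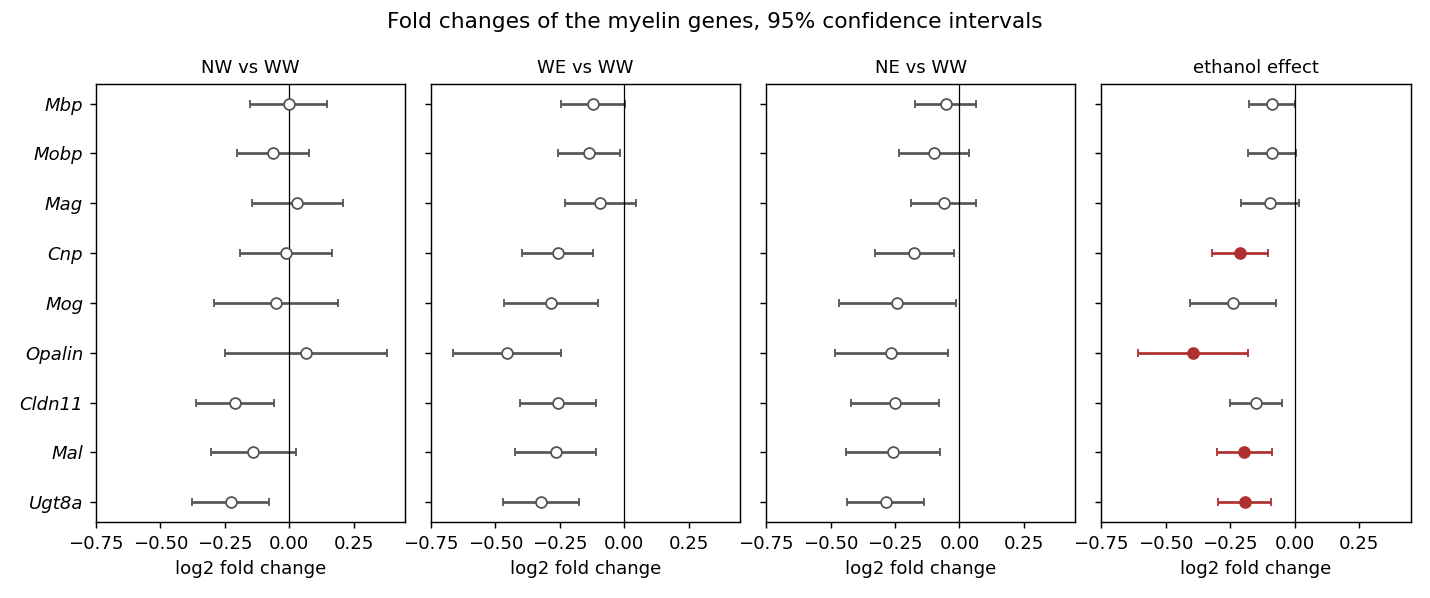
Log2 fold change (x axis) of the 9 myelin genes (rows) in 3 comparisons with WW and for the effect of ethanol over all 16 mice, with 95% confidence intervals from edgeR. Filled red points have an adjusted p-value under 0.05, and only Cnp, Opalin, Mal and Ugt8a in the rightmost panel do.

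Ethanol alone was compared with water by setting the 4 Water-Ethanol mice against the 4 WW mice. All 9 estimates were negative, from -0.09 for Mag to -0.45 for Opalin, with a median of -0.26 against 0.0015 over all genes tested. None of the 9 passed by edgeR, where 0.457% of all genes did, but 7 had an unadjusted p-value under 0.05 and were lower, as 9.05% of all genes did. The values nearest the threshold were those of Ugt8a (-0.32 ± 0.0681, adjusted p = 0.0572) and Opalin (-0.45 ± 0.0968, adjusted p = 0.0574), both from edgeR. For these 2 genes every Water-Ethanol mouse lay below every WW mouse, which held for 5.60% of all genes, and the exact two-sided permutation test gave p = 0.0286, the smallest that 4 against 4 mice allow. DESeq2 called 6 of the 9 genes (Cnp, Mog, Opalin, Cldn11, Mal and Ugt8a) lower, with 1.32% of all genes called lower. The count by edgeR was 4 (Cnp, Cldn11, Mal and Ugt8a) without WW mouse 18, which had the lowest level of the WW mice for each of the 9 genes, and 3 (Cnp, Opalin and Ugt8a) without WW mouse 21.

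Both drugs together were compared with water in the 4 NE mice against the same 4 WW mice, so this comparison is not independent of the one before. All 9 estimates were again negative, with a median of -0.24 on the log2 scale, from -0.05 for Mbp to -0.29 ± 0.0680 for Ugt8a (edgeR adjusted p = 0.0825). None passed by edgeR, as against 0.313% of all genes, and 6 were lower at an unadjusted p-value under 0.05, against 8.23% of all genes. DESeq2 called 3 of them lower (Ugt8a, Mal and Cldn11), beside 1.22% of all genes. Without WW mouse 21 Ugt8a passed by edgeR (adjusted p = 0.0442). No myelin gene had all NE mice below all WW mice, which 5.45% of all genes had. The smallest p of the exact permutation test was 0.0571, for Ugt8a.

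Nicotine alone gave estimates near 0 for most of the set, but not for Ugt8a, Cldn11 and Mal, and some intervals were wide. NW against WW, again with the same WW mice, had a median of -0.05, with 7 of 9 estimates negative. That median rests on single mice: it was 0.02 without NW mouse 11, -0.01 without NW mouse 10 or WW mouse 19, -0.0021 without WW mouse 20, -0.11 without NW mouse 7 or WW mouse 18, and 0.0022 with marker scores as covariates. None passed by edgeR, DESeq2 or limma, and by edgeR 0.0% of all genes passed. At an unadjusted p-value under 0.05, 2 of the 9 were lower, against 6.49% of all genes. These were Ugt8a at -0.23 ± 0.0681 (edgeR adjusted p = 0.343) and Cldn11 at -0.21 ± 0.0698 (edgeR adjusted p = 0.406). Mal was at -0.14, with a 95% interval from -0.30 to 0.03. Opalin at 0.07 and Mag at 0.03 had the 2 positive estimates. The 95% interval ran from -0.25 to 0.38 for Opalin and from -0.29 to 0.19 for Mog. In the fit of all mice the effect of nicotine ran from -0.10 for Cldn11 to 0.13 for Opalin, with none of the 9 passing by edgeR, DESeq2 or limma, 0.0% of all genes passing by edgeR, and 1 (Cldn11, lower) at an unadjusted p-value under 0.05, against 6.70% of all genes. The median of the 9 for nicotine was -0.0032, and it lay between -0.04 and 0.04 when single mice were left out.

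When nicotine was added to ethanol, the myelin genes did not pass a test of difference. NE set against Water-Ethanol had 9 positive estimates, from 0.0049 for Cldn11 to 0.19 for Opalin, the 95% interval of Opalin running from -0.05 to 0.43. The common sign rests on single mice, as the median of 0.04 became -0.01 without NE mouse 5 and -0.0010 without Water-Ethanol mouse 16. None of the 9 passed by edgeR, DESeq2 or limma or had an unadjusted p-value under 0.05 by edgeR, beside 0.0% of all genes that passed and 5.80% at the unadjusted threshold. NE set against NW had 9 negative estimates, from -0.34 for Opalin to -0.04 for Mobp. None passed by edgeR, DESeq2 or limma, with 0.0% of all genes by edgeR, and only Cnp was lower at an unadjusted p-value under 0.05 (-0.16 ± 0.0717, edgeR adjusted p = 0.395), as were 4.94% of all genes. The interaction, which asks whether the ethanol effect differed with nicotine, was positive for all 9, so that the estimated ethanol effect was the smaller in size with nicotine in this fit. None passed by edgeR, DESeq2 or limma, and 0.0% of all genes passed by edgeR. At an unadjusted p-value under 0.05 there were 2 of 9, beside 6.76% of all genes, and these were Ugt8a at 0.27 ± 0.0970 (edgeR adjusted p = 0.678) and Cldn11 at 0.22 ± 0.0958 (edgeR adjusted p = 0.711). The interaction contains the difference between NW and WW with its sign turned, so it is not independent of that comparison.

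The 9 genes varied together from mouse to mouse. With group means removed, Pearson's r over the 16 mice was between 0.38 (Opalin and Mal) and 0.96 (Cldn11 and Mal) in the 36 pairs, with a median of 0.73. Opalin with Cldn11 (0.40) was the pair next to the lowest, and Opalin is the least abundant of the 9. These correlations share the depth and dissection of each library and are given as a description. The genes outside the set whose level followed the mean of the 9 most closely, by the same measure, included Atp10b (r = 0.96) and Sgk2 (0.90). Emp2, Lpar1, Gltp, Ddah2, Caps2, Abhd4 and Cers2 were also among them (0.88 to 0.85), and Atp10b, Sgk2 and Caps2 were of low abundance, at 0.544, 0.708 and 0.128 FPKM. By the same measure, marker scores had an r with the mean of the 9 genes of -0.49 for telencephalon, 0.41 for brain endothelium, 0.30 for astrocytes, 0.23 for olfactory bulb and for microglia, -0.15 for neurons, 0.12 for cerebellar neurons, -0.06 for hindbrain and 0.01 for Schwann cells.

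**Figure D3:**
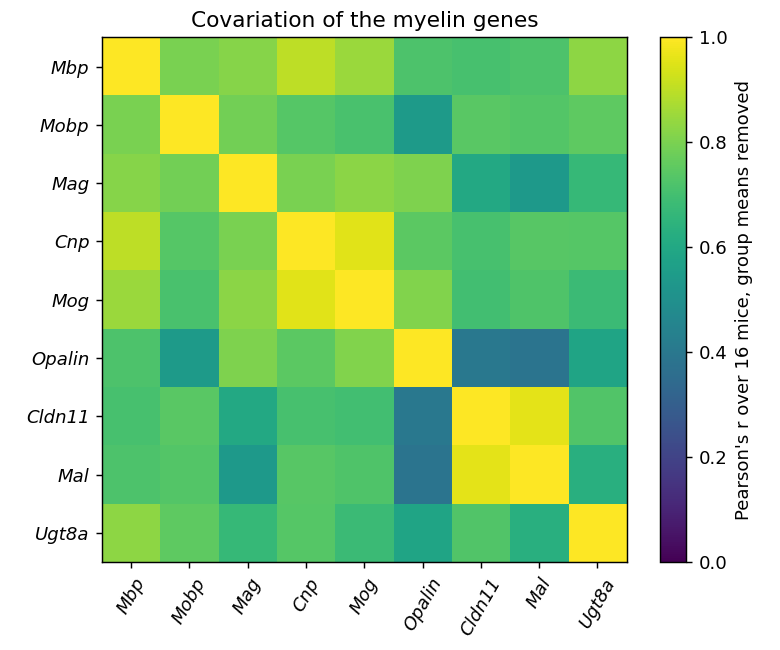
Pearson's r (colour, from 0 to 1) between the log2 CPM of each pair of the 9 myelin genes over the 16 mice after the mean of each group was removed. Cldn11 and Mal form the strongest pair at 0.96 and Opalin and Mal the weakest at 0.38.

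Other genes of myelin and of oligodendrocytes are given by list, and the difference between lists was not tested. In the ethanol effect edgeR called 1.56% of all genes lower and 4.50% in either direction, the shares to set beside the count of each list. Of 42 other genes of myelin and mature oligodendrocytes that could be tested, 2 were lower in the ethanol effect by edgeR, none was higher, and the median was -0.07, against the -0.19 of the 9 genes. The 2 were Tmem125, a membrane protein, at -0.43 (SE 0.103, adjusted p = 0.0233) and Omg, the oligodendrocyte myelin glycoprotein, at -0.13 (SE 0.0343, adjusted p = 0.0430). Of 18 genes of myelin lipid synthesis, which supply the lipids of the sheath, only Fasn, the fatty acid synthase, was lower (-0.13 ± 0.0295, edgeR adjusted p = 0.0182), and the median was -0.08. Idi1, an enzyme of sterol synthesis, was lower in Water-Ethanol than in WW (-0.22 ± 0.0404, edgeR adjusted p = 0.0471), where 0.183% of all genes were called lower. The call was lost when any of 7 of the 8 mice was left out, all but WW mouse 21. Idi1 averaged 89.8 CPM in WW, 77.0 in Water-Ethanol and 72.8 in NW. Among 12 transcription factors of the lineage, Olig1 (-0.20 ± 0.0341, edgeR adjusted p = 0.0045) and Olig2 (-0.16 ± 0.0413, edgeR adjusted p = 0.0326), both needed to form oligodendrocytes, were lower, and the median was -0.04. In the list of 19 genes of precursors and newly formed oligodendrocytes, the matrix protein Tnr was lower (-0.11 ± 0.0290, edgeR adjusted p = 0.0385), with a median of -0.05. The NE mean of Tnr, 115.3 CPM, was not below the NW mean of 114.8 CPM. Its WW mean was 120.1 CPM and its Water-Ethanol mean 102.7 CPM, and edgeR also called this difference (-0.22 ± 0.0362, adjusted p = 0.0357). No gene of the list passed there when any Water-Ethanol mouse, WW mouse 19 or WW mouse 20 was left out.

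Lists for other cells show what else differed beside the myelin genes. Over all genes, edgeR called 1.56% lower in the ethanol effect and 4.50% in either direction, and 10.1% were lower at an unadjusted p-value under 0.05. Of 10 microglial markers, all had negative estimates in the ethanol effect (median -0.20), and C1qa, C1qb and Cx3cr1 passed by edgeR and were lower, at -0.22, -0.21 and -0.20 (adjusted p = 0.0386, 0.0402 and 0.0387). At an unadjusted p-value under 0.05, 9 of the 10 were lower. Against WW, 7 of the 10 were lower at that threshold in Water-Ethanol (median -0.21) and 6 in NE (median -0.20). The shares of all genes were 9.05% and 8.23%. C1qa and C1qb encode chains of a complement protein and Cx3cr1 a chemokine receptor. None of the 10 passed without the 2 mice with low regional markers. The summed level of these 10 markers was 318 to 407 CPM in WW, 314 to 355 in NW, 311 to 332 in Water-Ethanol and 286 to 343 in NE. Among 10 markers of brain endothelium 3 passed by edgeR and were lower (Slco1a4, Abcb1a and Itm2a, list median -0.07). Of 10 astrocyte markers Aldh1l1 passed and was lower (-0.19, list median -0.03). At an unadjusted p-value under 0.05, 4 of the 10 endothelial and 4 of the 10 astrocyte markers were lower in the ethanol effect. None of 13 neuronal genes passed in the ethanol effect by edgeR, and 2 were lower at an unadjusted p-value under 0.05 (list median -0.03). None of 9 Schwann cell markers passed by edgeR, with none at an unadjusted p-value under 0.05 and a median of 0.13, and their sum was 126 to 155 CPM in the other 15 mice and 169 CPM in Water-Ethanol mouse 13. Markers of brain regions gave no call by edgeR among 12 for cerebellar neurons (median 0.18, none at an unadjusted p-value under 0.05), 10 for the olfactory bulb (median -0.16, 1 at an unadjusted p-value under 0.05, lower) or 16 for hindbrain and spinal cord (median 0.53, 2 at an unadjusted p-value under 0.05), while Neurod2 was higher (0.17) among 9 for the telencephalon. Against WW, the median of the olfactory bulb markers was -0.24 for NW and -0.29 for both Water-Ethanol and NE. At an unadjusted p-value under 0.05, 4, 4 and 7 of the 10 were lower, against 6.49%, 9.05% and 8.23% of all genes. None of these markers passed by edgeR. Their sum was 290 to 312 CPM in WW, 231 to 278 in NW, 209 to 296 in Water-Ethanol and 220.2 to 292 in NE. The part of microglia, endothelium or region in the lower levels of myelin genes was not tested beyond the fits without the 2 mice and with regional scores.

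**Figure D4:**
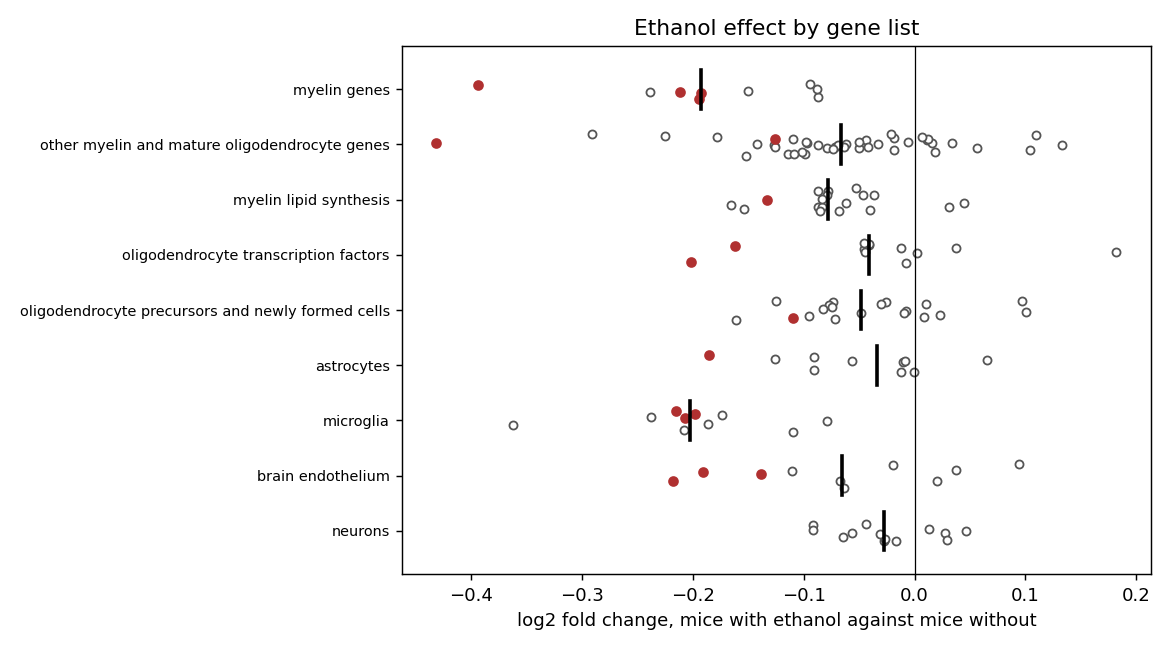
Log2 fold change of each gene (points, x axis) between mice with and without ethanol, by list (rows), with a black bar for the median of the list. Filled red points passed the test by edgeR; the median of the myelin genes is -0.19, that of the other myelin and oligodendrocyte genes -0.07 and that of microglial markers -0.20.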

How the data were processed

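RNA-seq was analysed in 16 whole mouse brains, grouped by the labels (4 WW, 4 NW, 4 Water-Ethanol, 4 NE). Per the labels and methods, the authors trimmed reads with Trimmomatic 0.32 and aligned them with TopHat2 to GRCm38. The authors deposited whole read counts per gene, not normalized. The counting program is not given in the sources used here, and they differ on whether the kit was stranded. None of the 9 genes shares exons with another gene of the table. The authors also deposited FPKM from the Cufflinks tools. These carry no depth and served for levels between genes and for limma on log2(FPKM + 1) and log2(FPKM + 0.1).

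Counts were tested with edgeR 4.0.16 (R 4.3.3): TMM factors, filterByExpr, quasi-likelihood test, Benjamini-Hochberg adjustment over all genes tested, threshold 0.05. NW, Water-Ethanol and NE were set against WW, and NE against Water-Ethanol and NW, in fits of the 8 mice compared. The ethanol effect, nicotine effect and interaction came from a fit of all 16. Plotted levels are CPM with TMM factors of all 16 mice. Single genes were also compared by exact permutation tests. Intervals and SEs follow from the F statistic. limma 3.58.1 and DESeq2 1.42.0 were alternatives, beside RLE factors, other filters, a GC correction, marker scores as covariates and leaving out each mouse. Leaving out both mice with low cerebellar markers was chosen after seeing the data. The code was tested on simulated data. Promoter windows are RefSeq's (GRCm38.p6), with 8 of 9 genes matched, all but Mbp. Python 3.11.15, scipy 1.17.1 and matplotlib 3.10.9 served for the rest.

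The members and gene lists were chosen with earlier results of these data known, so their direction is not independent evidence. Named are all 9 members, the list genes called in Water-Ethanol or NE against WW or in the ethanol effect (at most 5 per list), and the 10 genes most correlated with the members' mean. Not every such gene or marker is reported here. The behavioural data were not analysed here.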

Additional observations from a re-analysis of the deposited data

Results flagged for a closer look

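In 2 of the 36 sets of 4 mice (9 genes in 4 groups), 1 mouse lay farther from the other 3 than Dixon's critical ratio for 4 values allows, where chance gives about 1 in 20. Water-Ethanol mouse 16 had 214 CPM of Cldn11, below the 232 to 236 CPM of the other Water-Ethanol mice. NW mouse 10 had 134 CPM of Ugt8a, below the 149 to 153 CPM of the other NW mice, and it is 1 of the 2 mice with low cerebellar markers.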

How the results depend on the processing

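No paired analysis was possible because the mouse numbers of one group do not recur in another. In the ethanol effect, where 4 of the 9 myelin genes passed, 2 passed with limma on log2(FPKM + 1), 0 with limma without a filter on low values and 2 with marker scores as covariates, and leaving out 1 mouse gave 0 to 6. For Water-Ethanol against WW, where 0 passed, DESeq2 called 6 and edgeR without a filter 2, and leaving out 1 mouse gave 0 to 4. For NE against WW, where 0 passed, DESeq2 called 3, and leaving out 1 mouse gave 0 to 1. The cause of these differences was not tested. In the other 5 comparisons no myelin gene passed under any alternative. The median of the 9 genes changed sign with the mice left out for NW against WW (-0.11 to 0.02), NE against Water-Ethanol (-0.01 to 0.07) and nicotine (-0.04 to 0.04). Over all genes, edgeR called 702 in the ethanol effect (280 to 899 with 1 mouse left out, 1073 by DESeq2, 1061 without both mice with low cerebellar markers). It called 70 for Water-Ethanol against WW (0 to 797 with 1 mouse left out, 576 by DESeq2, 143 without a filter, 35 with GC correction, 28 in the fit of all 16 mice, 0 by limma) and 48 for NE against WW (0 to 283, 507 by DESeq2, 9 with GC correction, 26 and 1 by limma with and without a filter). With marker scores it called 0 in both. For NW against WW edgeR called 0, DESeq2 124 and the fit of all 16 mice 112, and for NE against NW these were 0, 93 and 57. For nicotine DESeq2 called 101. For NE against NW marker scores as covariates gave 154 and limma 2. Over the alternatives of the ethanol effect, the numbers that passed were 0 to 6 of the microglial markers, 0 to 5 of the other myelin and oligodendrocyte genes, 0 to 3 for astrocytes, 2 to 3 for endothelium, 1 to 3 for lipid synthesis, 1 to 2 for transcription factors and 0 to 1 for precursors. The SE of the ethanol effect was largest for Opalin (0.102), the least abundant of the 9, followed by Mog (0.0803). It was smallest for Mbp (0.0433) and Mobp (0.0442). Whether these SEs follow depth or abundance was not tested.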
